A study of Homo sapiens with 6 samples.

Results

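Of the genes that put peptides on the cell surface with MHC class I, 7 were followed in bronchial epithelial cells with and without the U2AF1 mutation S34F. They were the heavy chain genes HLA-B, HLA-C, HLA-E and HLA-F, the light chain gene B2M, and the peptide transport and loading genes TAP1 and TAPBP. They were found by the Ensembl gene ID at the end of each isoform name, and they make up 7 of 11034 genes with an ID, 45 of 63224 isoforms and 10217 of 6868634 reads. The cells are HBEC3kt, a human bronchial epithelial line immortalised in culture with CDK4 and hTERT. The groups were U2AF1 S34F cells (3 libraries) and wild-type (WT) cells (3 libraries), in the same line, with no treatment named in either. In both genotypes replicate 1 was isolate 1, replicate 2 was isolate 2, and replicate 3 was isolate 2 in another library. Replicates 1 and 2 carry the mark B1 and replicate 3 the mark B2. The labels do not say how the mutation was introduced, whether an isolate is a single clone, or what the marks stand for. With 2 isolates a genotype, p-values measure the spread between these libraries, part of which may be technical.

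MHC class I is a heavy chain (such as HLA-B or HLA-C, with HLA-E and HLA-F as less variable forms) held by the light chain beta-2 microglobulin. Peptides cut by the proteasome are carried into the endoplasmic reticulum by the TAP1/TAP2 transporter and loaded with the help of tapasin, the product of TAPBP, before the complex moves to the surface and is read by T cells and natural killer cells. Epithelial cells keep the pathway on at a low level and raise it with interferon. U2AF1 is the subunit of the splicing factor U2AF that contacts the AG at the end of an intron, and in earlier work the S34F change shifted which 3′ splice sites are used, depending on the base just before that AG.

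Libraries held 811255, 451540 and 1014868 reads for S34F replicates 1 to 3 and 1720292, 1286512 and 1584167 for WT replicates 1 to 3. The line's label was set against marker genes. All 11 markers of basal bronchial epithelium had reads, with a summed level of 11101 to 20438 CPM (reads scaled to library size, with TMM factors) in S34F and 8249 to 13139 CPM in WT libraries. The sum rests on few genes. In S34F replicate 1, S100A2 gave 12279 and KRT14 5251 of its 20438 CPM. TP63 averaged 18.1 CPM in S34F and 20.4 CPM in WT cells, and EPCAM 8.02 and 6.04 CPM. Within this list, LAMB3, a laminin chain, fell in S34F cells (log2 fold change -1.39, edgeR adjusted p = 0.0290), while the keratin gene KRT5 averaged 1028 ± 357 CPM in S34F and 412 ± 121 CPM in WT cells (SD, n = 3 each; edgeR adjusted p = 0.0512). None of the 7 secretory or ciliated markers and none of the 6 fibroblast markers had reads in the rows analysed. Of 12 markers of blood and antigen-presenting cells, 2 had reads, at 1.64 to 10.6 CPM in S34F and 32.7 to 35.6 CPM in WT libraries. Most of these reads lay at HLA-DRB1, an MHC class II chain, with 0, 5 and 4 reads in S34F and 56, 36 and 48 in WT libraries. It fell in S34F cells with a log2 fold change of -2.80 (edgeR's quasi-likelihood test, Benjamini-Hochberg adjusted p = 0.0127). Without S34F replicate 3 or without any 1 of WT replicates 1 to 3 its adjusted p in edgeR was 0.0727, 0.0615, 0.0635 and 0.127, and with the libraries of isolate 2 summed it was 1.00 (log2 fold change -3.11). It was called in 13 of 21 settings other than the main one. PTPRC, CD74 and HLA-DRA, also among the 12 markers, had no reads in the rows analysed. The part of HLA-DRB1's source in the class I results was not tested.

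The heavy chain genes are close copies, which bears on every value given for them, so the sequences where reads must be told apart are shown first. The last 60 bases of exon 1 come from the GENCODE reference transcripts of HLA-C and HLA-B (chromosome 6), with the bases that differ between the genes in capitals.
HLA-C exon 1: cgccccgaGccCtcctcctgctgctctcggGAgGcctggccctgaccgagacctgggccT
HLA-B exon 1: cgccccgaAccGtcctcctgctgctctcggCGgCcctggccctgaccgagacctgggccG
Of the 60 bases, 54 are the same, an identity of 90.0%. The whole of exon 2 is 93.7% identical between HLA-C and HLA-B, exon 3 is 93.8% and exon 4 is 93.5%. HLA-C and HLA-E are further apart, at 85.9% in exon 2, 84.8% in exon 3 and 92.8% in exon 4. These exons hold the peptide groove and the domain that holds beta-2 microglobulin, and whether reads were divided correctly between the copies was not tested. Sequences and identities here and below are those of the reference. The alleles that these cells carry were not read and may differ from it.

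The second set of sequences carries the 3′ splice sites at which the deposited models of member genes ended an intron in competing positions. Whether nanopore reads tell sites a few bases apart from each other correctly was not tested. Bases between the upstream and the downstream site are in capitals, and lower case letters before them are the end of the intron.
HLA-B, 4 bases: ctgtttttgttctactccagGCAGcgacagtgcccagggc
HLA-C, 4 bases: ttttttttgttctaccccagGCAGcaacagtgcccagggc
HLA-C, 17 bases: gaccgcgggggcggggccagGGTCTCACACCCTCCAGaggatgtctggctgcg
HLA-C, 18 bases: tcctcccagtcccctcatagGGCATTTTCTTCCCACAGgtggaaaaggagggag
HLA-E, 74 bases: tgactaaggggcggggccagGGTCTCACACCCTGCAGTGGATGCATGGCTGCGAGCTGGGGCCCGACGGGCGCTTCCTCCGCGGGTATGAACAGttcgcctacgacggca
B2M, 11 bases (exon only): GTACTCCAAAGattcaggtttactcac
The base before the AG was C at both sites of the 4-base pairs in HLA-B and HLA-C, the 17-base pair in HLA-C and the 74-base pair in HLA-E. It was T at the upstream and C at the downstream site of the 18-base pair, and A at the downstream B2M site. In the 4-base pairs, HLA-B and HLA-C share the letters between the sites.

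Of the heavy chain genes, HLA-B had the clearest difference between the genotypes, and it did not pass the test. HLA-B, a classical chain that shows peptides to CD8 T cells and is a ligand of some natural killer receptors, lies at chr6:31321650-31324956 on the minus strand of hg19 and had 36, 35 and 56 reads in S34F libraries against 188, 125 and 145 in WT libraries. On the CPM scale these were 59.1, 74.3 and 52.9 in S34F and 112, 106 and 86.2 in WT libraries. Every S34F library was below every WT library, and in bulk RNA fewer cells with the transcript and less of it per cell cannot be told apart. The means were 62.1 ± 11.03 CPM in S34F and 101 ± 13.5 CPM in WT cells (SD, n = 3 each). The log2 fold change was -0.71 (SE 0.27, 95% interval -1.29 to -0.14), with an unadjusted p of 0.0187 and a Benjamini-Hochberg adjusted p of 0.192 in edgeR's quasi-likelihood test over 7033 genes and loci. With the libraries of isolate 2 summed, so that each genotype has 2 samples, the unadjusted p was 0.118 in the same edgeR test and the log2 fold change -0.81.

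HLA-E, whose product shows leader peptides of other class I chains to natural killer cells, had the other pair of groups that did not overlap. It lies at chr6:30457245-30461982 on the plus strand. Its level was 138, 121 and 132 CPM in S34F libraries against 170.4, 154 and 202 CPM in WT libraries. The highest S34F library was below the lowest WT library, and the means were 130.4 ± 8.61 CPM in S34F and 175 ± 24.4 CPM in WT cells (SD, n = 3 each). The log2 fold change was -0.42 (95% interval -0.97 to 0.13), with an edgeR adjusted p of 0.444. Ranges of the genotypes did not overlap for 2 of the 6 tested members, HLA-B and HLA-E, beside 13.1% of all tested genes and loci.

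HLA-C, the classical chain best known as a ligand of inhibitory natural killer receptors, had 227, 253 and 163 CPM in S34F libraries and 292, 262 and 167 CPM in WT libraries. The B2 library was the lowest of each genotype. Each S34F library was below the WT library with the same number, but the groups overlapped. The means were 214 ± 45.9 CPM in S34F and 240.4 ± 65.2 CPM in WT cells (SD, n = 3 each), and the log2 fold change was -0.15 (95% interval -0.71 to 0.41, edgeR adjusted p = 0.829). HLA-F, a chain of restricted tissue range, was near the limit of detection, with 0, 2 and 2 reads in S34F and 6, 3 and 8 reads in WT libraries. It was too low for the test. Summed over libraries and scaled for depth, its 4 S34F reads against 17 WT reads give a ratio of 0.499, with an exact 95% counting interval of 0.122 to 1.53. In S34F replicate 1, the count of 0 allows up to 4.93 CPM (3 reads). Reads come from amplified cDNA without molecular identifiers, so all intervals and floors of this kind cover counting error only.

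B2M, the light chain shared by all class I molecules, was the only tested member with a fold change above 0. It lies at chr15:45003676-45010265 on the plus strand and was the most abundant member, with 788, 1000.3 and 1258 CPM in S34F libraries and 694, 735 and 1059 CPM in WT libraries. Each S34F library was above the WT library with the same number, but the groups overlapped. The means were 1016 ± 235 CPM in S34F and 829 ± 199.7 CPM in WT cells (SD, n = 3 each), with a log2 fold change of 0.30 (95% interval -0.34 to 0.94, edgeR adjusted p = 0.674).

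TAP1, the transporter subunit, was read thinly. It had 9, 4 and 16 reads in S34F libraries, or 14.8, 8.50 and 15.1 CPM, and 45, 14 and 48 reads in WT libraries, or 26.8, 11.9 and 28.6 CPM. Replicate 2 was the lowest library of both genotypes, and WT replicate 2 lay within the S34F range. Each S34F library was below the WT library with the same number. The log2 fold change was -0.81 with a wide 95% interval of -1.71 to 0.10 (edgeR adjusted p = 0.350). TAPBP, which encodes tapasin, the bridge between TAP and the empty heavy chain, had 75.6, 61.6 and 127 CPM in S34F libraries and 75.7, 99.3 and 196 CPM in WT libraries. The B2 library was the highest of each genotype, each S34F library was below the WT library with the same number, and the groups overlapped. Its log2 fold change was -0.45 (95% interval -1.03 to 0.13, edgeR adjusted p = 0.436).

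**Figure D1:**
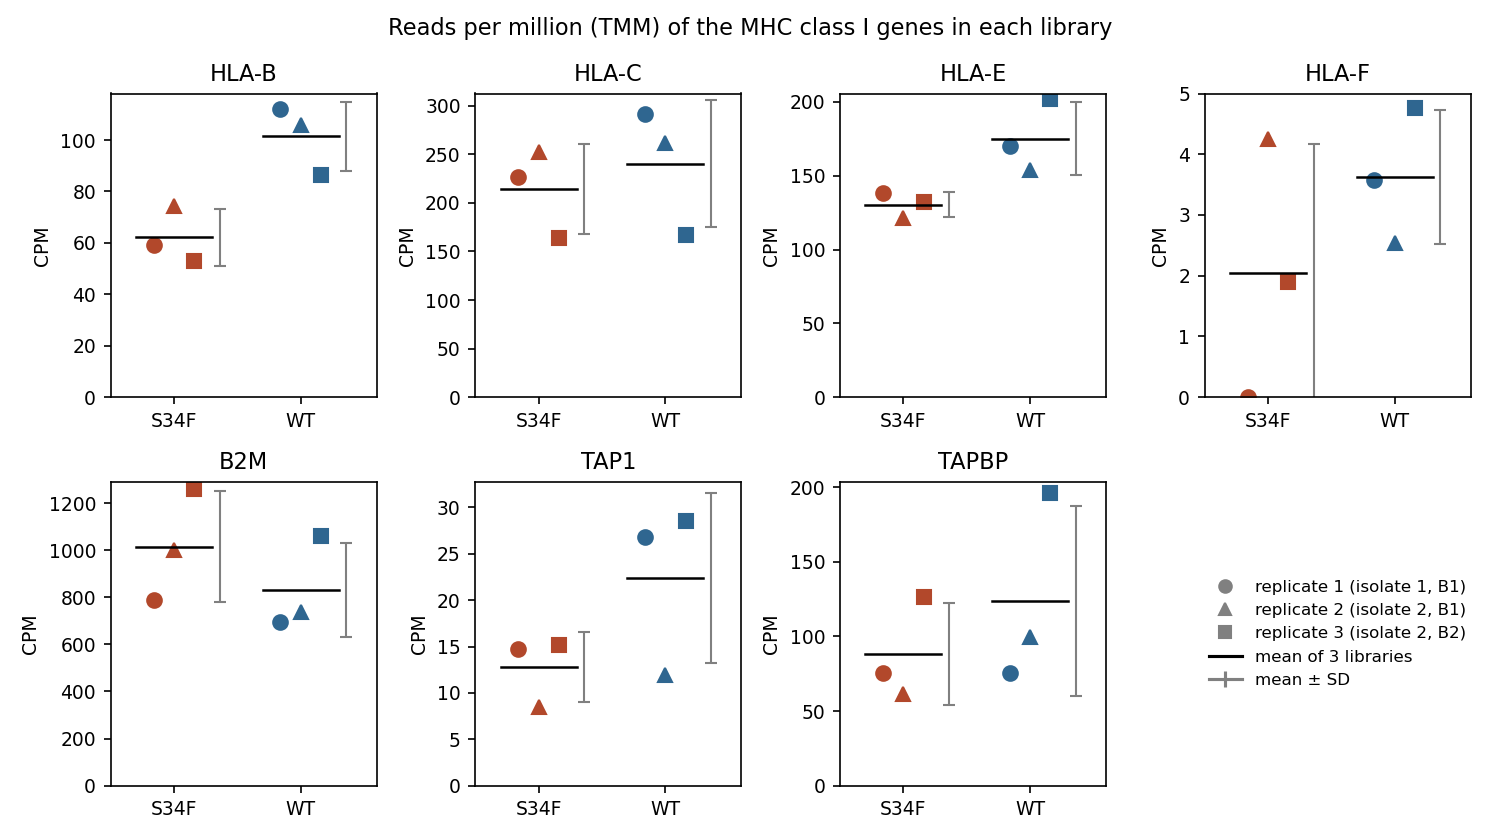
Level of each member in CPM (y axes, from 0, each panel on its own scale) in the 3 S34F and 3 WT libraries, with the mean as a black line and the mean ± SD as a grey bar. HLA-B and HLA-E are the 2 tested members whose S34F points all lie below the WT points, and the squares (isolate 2, B2) are lowest for HLA-B and HLA-C and highest for B2M, TAP1 and TAPBP in both genotypes.

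None of the 6 tested members was called at gene level, beside 3.24% of all 7033 tested genes and loci in edgeR's quasi-likelihood test. One, HLA-B, had an unadjusted p under 0.05, beside 17.0% of all tested. DESeq2 and limma-voom called none of the 6 either. The log2 fold change was below 0 for 5 of the 6 and above 0 for B2M, with a median of -0.44 beside 0.02 over all genes and loci tested. The intervals leave room for sizeable differences, since that of HLA-C covers folds of 0.611 to 1.33 and that of B2M folds of 0.79 to 1.91.

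**Figure D2:**
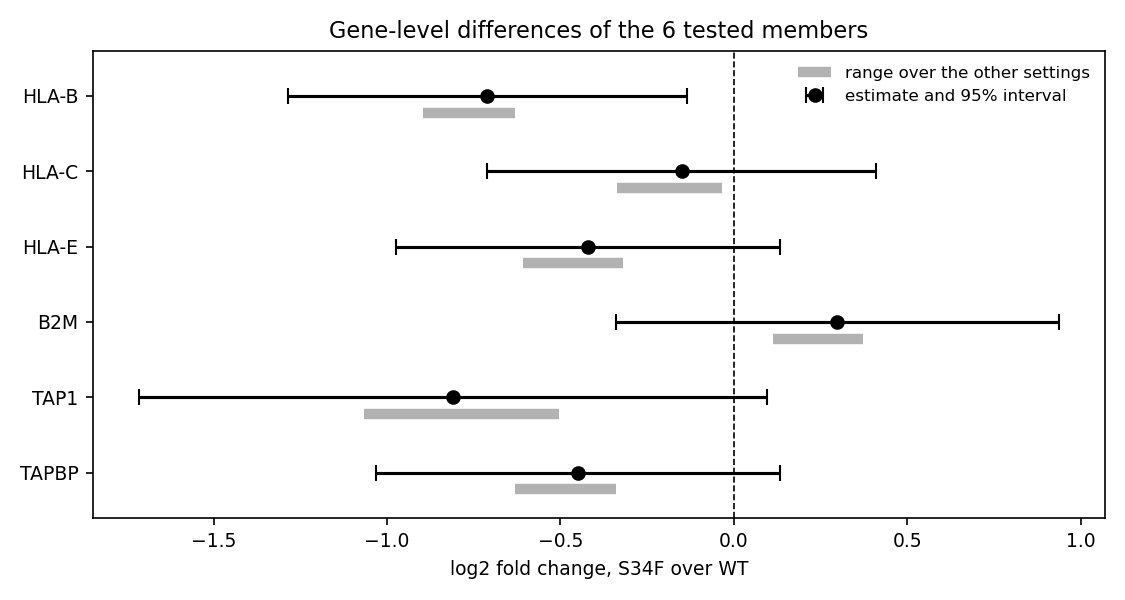
Log2 fold change of S34F over WT (x axis) for the 6 tested members, with the edgeR estimate and its 95% interval in black and, in grey, the range of estimates over the other settings tried. Only the interval of HLA-B, -1.29 to -0.14, lies wholly below 0 before adjustment, and no grey bar crosses 0.

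Between genes, levels were compared per kilobase of the read-weighted model length. In S34F cells B2M led with 1131 ± 262 CPM per kilobase, followed by HLA-C with 148 ± 31.8, HLA-E with 56.9 ± 3.75, HLA-B with 40.4 ± 7.18, TAPBP with 28.9 ± 11.3, TAP1 with 4.86 ± 1.42 and HLA-F with 1.67 ± 1.73 (SD, n = 3 each). The WT cells kept the same order, with B2M at 924 ± 222 CPM per kilobase, HLA-C at 166 ± 45.1, HLA-E at 76.4 ± 10.6, HLA-B at 66.0 ± 8.78, TAPBP at 40.7 ± 21.0, TAP1 at 8.52 ± 3.48 and HLA-F at 2.95 ± 0.902 (SD, n = 3 each). Neighbours whose library ranges overlapped were HLA-B and TAPBP in both genotypes, TAP1 and HLA-F in S34F cells, and HLA-E and HLA-B in WT cells. The place of HLA-B and HLA-C in this order depends on how reads were divided between them.

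That division was visible in the isoform models. HLA-C had 19 models, and 8 of them join exons at HLA-C to exons at the place of HLA-B, across an apparent intron of 85217 to 85681 bases. They held 853 of the 1510 HLA-C reads, or 56.5%. The model with most reads, 485 or 32.1% of the gene, takes exon 1 at HLA-B and its other 7 exons at HLA-C. The first model with an annotated transcript ID, ENST00000376228.5, came next with 325 reads. Joined models took 52.9%, 59.7% and 56.1% of HLA-C reads in S34F libraries and 59.0%, 55.3% and 54.1% in WT libraries. The groups overlapped fully (exact permutation test, two-sided, p = 1, with 0.1 as the smallest p that 3 against 3 allows). Its exons 2 to 8 are those of the annotated HLA-C model, and the end of exon 1 is printed above for both genes. The 2 models of this kind held 609 reads. The other 6 joined models, with 244 reads, take fewer exons at HLA-C or up to 3 exons at HLA-B. No source used here says whether the joined models are transcripts or a product of how reads were placed at the copies.

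**Figure D3:**
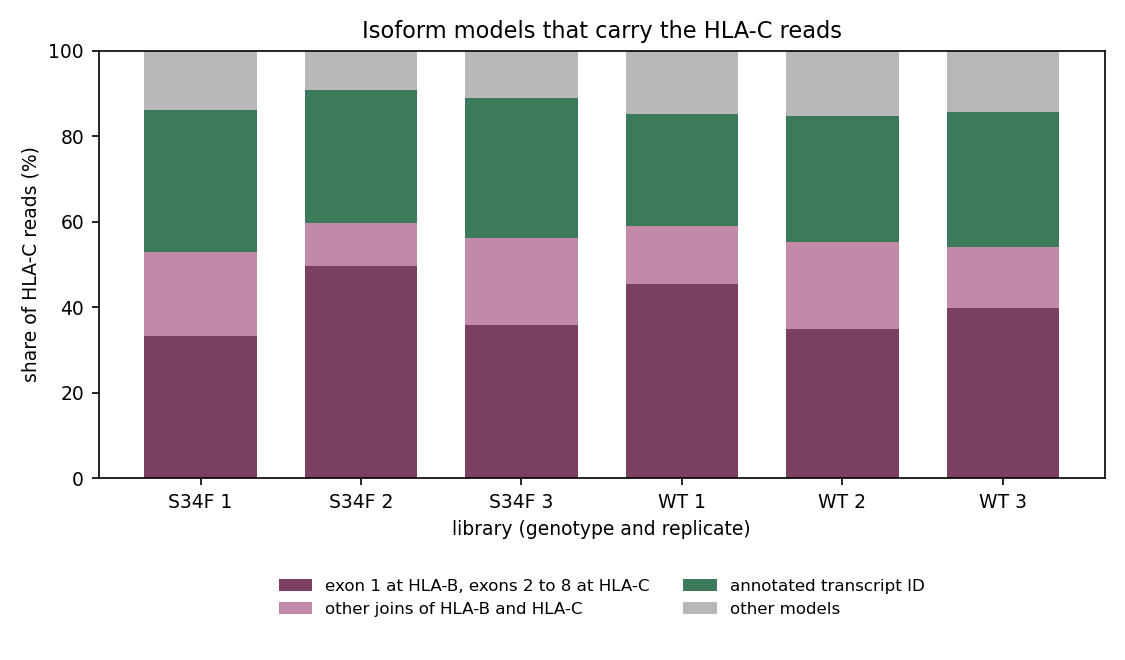
Share of HLA-C reads in percent (y axis) by kind of isoform model in each library (S34F replicates left, WT replicates right). Models that join HLA-B exons make up between 52.9% and 59.7% of the reads in every library, more than models with an annotated transcript ID, which hold 26.1% to 33.3%.

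The gene-level difference was recomputed around this. With HLA-B and HLA-C reads summed as 1 gene, the log2 fold change was -0.30 (edgeR adjusted p = 0.631). With the joined models left out, HLA-C stayed at -0.15 (edgeR adjusted p = 0.822). The counts of HLA-B are the same in that setting, so its -0.71 (edgeR adjusted p = 0.192) is no check on HLA-B. Moving only the joined reads to HLA-B was not tried. All 3 HLA-B models lie at HLA-B alone.

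No single isoform was called either. Of 45 member isoforms, 22 were tested and 0 called, beside 4.26% of all isoforms tested by edgeR. An unadjusted p under 0.05 was found for 2 of the 22, beside 17.0% of all. DESeq2 called none of the 22. These 2 were the annotated models of TAP1 and HLA-B. CPM of member isoforms, here and below, use the TMM factors of the isoform fit. They are on another scale than gene CPM and cannot be set against them library by library. The TAP1 model ENST00000354258.4, with 94.1% of that gene's reads, had 11.1, 9.29 and 18.2 CPM in S34F libraries and 24.99, 12.4 and 36.2 CPM in WT libraries (log2 fold change -0.93, edgeR adjusted p = 0.256). The HLA-B model ENST00000412585.2, with 80.9% of the reads, had 46.2, 65.0 and 55.7 CPM in S34F libraries and 89.3, 88.8 and 95.6 CPM in WT libraries. Its groups did not overlap, and its log2 fold change was -0.72 (edgeR adjusted p = 0.257). Because of the other scale, its 95.6 CPM in WT replicate 3 is above the 86.2 CPM of the whole gene.

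The other leading isoforms were as follows. The second HLA-B model, without an annotated ID, uses the downstream one of the 4-base pair of sites and had 6, 6 and 5 reads in S34F and 34, 20 and 16 in WT libraries (log2 fold change -0.87, edgeR adjusted p = 0.332). The leading HLA-C model, which joins HLA-B, had 43.0, 102.1 and 59.1 CPM in S34F libraries and 113, 79.9 and 70.2 CPM in WT libraries (log2 fold change -0.38, edgeR adjusted p = 0.660). Without S34F replicate 1 its log2 fold change was -0.07, and without S34F replicate 2 it was -0.71. ENST00000376228.5 of HLA-C averaged 54.3 ± 13.8 CPM in S34F and 55.7 ± 3.88 CPM in WT cells (SD, n = 3 each), a difference within the spread of the S34F libraries. HLA-E was read mostly from models of 8 exons that differ in their 3′ end. The longer one held 52.4% of reads and averaged 71.2 ± 18.0 CPM in S34F and 105.7 ± 31.4 CPM in WT cells (SD, n = 3 each; log2 fold change -0.56, edgeR adjusted p = 0.408). The shorter one held 26.4% and averaged 39.9 ± 1.94 CPM in S34F and 51.0 ± 11.1 CPM in WT cells (SD, n = 3 each; log2 fold change -0.36, edgeR adjusted p = 0.667). B2M was dominated by ENST00000558401.1, with 86.3% of its reads and 976 ± 340.5 CPM in S34F and 824 ± 351 CPM in WT cells (SD, n = 3 each; log2 fold change 0.28, edgeR adjusted p = 0.759). TAPBP had 92.1% of its reads on ENST00000489157.1, at 86.8 ± 53.9 CPM in S34F and 135.6 ± 97.2 CPM in WT cells (SD, n = 3 each; log2 fold change -0.59, edgeR adjusted p = 0.393).

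Isoform usage within a gene, tested with edgeR's diffSpliceDGE, could be read for B2M, HLA-B, HLA-C and HLA-E. None of the 4 was called by the Simes or by the gene-level F test, beside 0.615% of 2276 genes by Simes. The lowest unadjusted Simes p was 0.623, for HLA-C, so none of the 4 was under 0.05, beside 6.02% of all genes tested. The share of reads on annotated transcript IDs was 32.5% ± 1.198 in S34F and 29.1% ± 2.79 in WT cells for HLA-C (SD, n = 3 each; exact permutation test, two-sided, p = 0.2). For B2M it was 93.0% ± 0.763 in S34F and 92.4% ± 2.38 in WT cells (SD, n = 3 each; exact permutation test, two-sided, p = 0.8). For HLA-B it was 82.7% ± 4.18 in S34F and 80.5% ± 4.75 in WT cells (SD, n = 3 each; exact permutation test, two-sided, p = 0.6). Of 6 members with reads in every library, 0 had shares that did not overlap between the genotypes, beside 12.2% of all genes compared. Without S34F replicate 2 this was 1 (HLA-C), beside 22.3% of all genes compared, and without WT replicate 3 it was 2 (HLA-C and B2M), beside 23.0%. The 2882 genes compared had at least 10 reads in every library and both annotated and other models. The members were not held to that depth, and TAP1 had 9 and 4 reads in S34F replicates 1 and 2.

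At the level of single splice and end choices, 17 choices in 5 of the genes had at least 10 informative reads in every library. For 2 of the 17 the genotypes did not overlap, beside 13.8% of all choices in the series, and both were cassette exons of HLA-C. Of cassette exons, 2 of 6 did not overlap, beside 15.8% of all. Reads of the models that join HLA-B exons count in the HLA-C choices, here and below. These choices were not recomputed without them. The 120-base exon 5 of HLA-C, at chr6:31237743-31237862, encodes the part of the chain that spans the membrane. It was included in 96.1%, 96.5% and 97.0% of informative reads in S34F libraries and in 93.3%, 89.4% and 94.8% in WT libraries. WT replicate 2, the lowest, had 284 informative reads and an exact 95% binomial interval of 85.3% to 92.8%. S34F replicate 2 had 115 informative reads and an interval of 91.3% to 99.0% (exact binomial). The libraries nearest each other across the genotypes were S34F replicate 1 and WT replicate 3. Their exact binomial intervals, 91.1% to 98.7% and 91.4% to 97.1%, overlapped almost wholly. The difference of the means was 4.01 points (exact permutation test, two-sided, p = 0.1, the smallest that 3 against 3 can give and the value of every choice whose groups do not overlap). Without WT replicate 2 the difference was 2.48 points. The 33-base exon 6 of HLA-C, at chr6:31237270-31237302, in the tail inside the cell, was included in 97.7%, 97.4% and 98.8% in S34F libraries and in 97.4%, 96.3% and 95.9% in WT libraries. The gap between the lowest S34F library and the highest WT library was smaller than either library's counting interval. Its difference was 1.43 points (exact permutation test, two-sided, p = 0.1). The matching 33-base exon overlapped between the genotypes in HLA-B, with means of 96.4% ± 0.311 in S34F and 94.7% ± 1.69 in WT cells, and in HLA-E, with 99.0% ± 0.895 in S34F and 98.0% ± 1.17 in WT cells (SD, n = 3 each).

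Competing 3′ splice sites, the kind of choice that U2AF1 takes part in, overlapped between the genotypes at all 6 positions, beside 12.1% of such choices in the series that did not. The downstream site of the 4-base pair, 31322299 in HLA-B, took 16.7%, 17.1% and 8.93% of reads in S34F libraries and 18.1%, 16% and 11.03% in WT libraries. In HLA-C the same pair, with its downstream site at 31237158, gave 24.6%, 17.6% and 15.8% in S34F libraries and 18.5%, 12.3% and 17.6% in WT libraries. The differences of means, -0.79 points in HLA-B and 3.21 points in HLA-C, were within the spread of the libraries. That of HLA-B was 1.86 points without S34F replicate 3 and 0.729 points without WT replicate 1. That of HLA-C was 0.572 points without S34F replicate 1 and 1.3 points without WT replicate 2. Use of the downstream site of the 17-base pair of HLA-C averaged 9.29% ± 2.68 in S34F and 7.54% ± 2.08 in WT cells (SD, n = 3 each). In the 18-base pair the downstream site, after C, took 99.2% ± 0.891 in S34F and 99.2% ± 0.721 in WT cells (SD, n = 3 each), and the upstream site, after T, the rest. The downstream site of the 74-base pair of HLA-E averaged 16.9% ± 4.10 in S34F and 15.7% ± 3.30 in WT cells (SD, n = 3 each). That of the 11-base pair of B2M averaged 3.82% ± 0.709 in S34F and 4.26% ± 1.45 in WT cells (SD, n = 3 each).

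The remaining choices overlapped too, among them the 1 alternative 5′ splice site, beside 13.3% of such sites in the series that did not overlap. The 28-base exon of B2M was included in 98.6% ± 0.468 in S34F and 98.9% ± 0.541 in WT cells (SD, n = 3 each). In the first exon of B2M, the 5′ splice site 10 bases upstream took 4.14% ± 1.39 in S34F and 5.12% ± 2.22 in WT cells (SD, n = 3 each). The 261-base exon of TAPBP is left out of the gene's main model. Its inclusion varied more between libraries than any other choice here, at 13.6%, 21.4% and 1.504% in S34F and 17.2%, 5.17% and 3.04% in WT libraries, and both B2 libraries were at the low end. The 3′ ends of HLA-E lie 884 bases apart, and the distal one was used in 70.2%, 68.4% and 73.4% of reads in S34F libraries and in 66.3%, 72.8% and 76.4% in WT libraries.

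**Figure D4:**
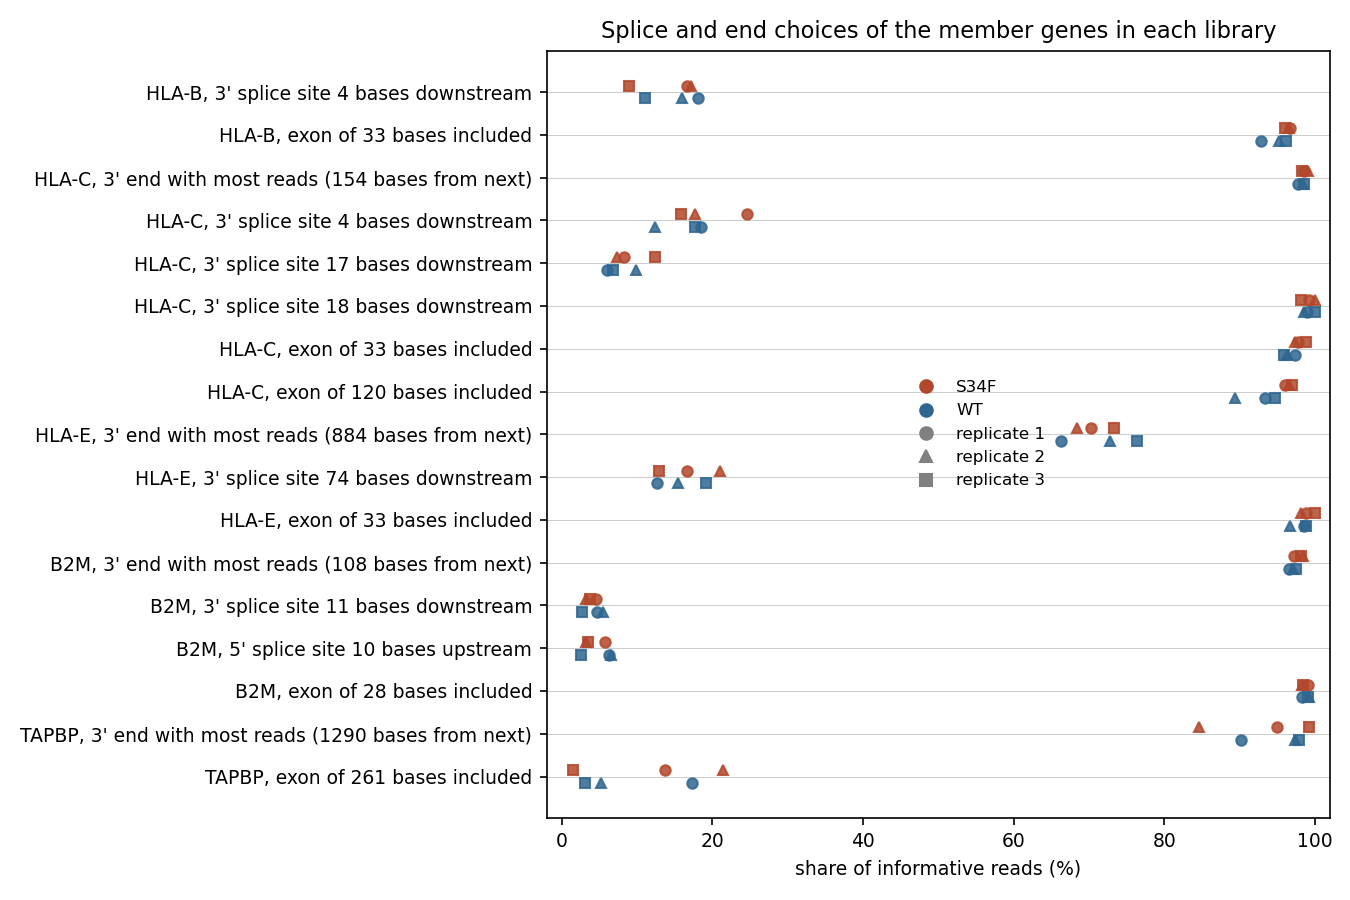
Share of informative reads in percent (x axis) for each of the 17 splice and end choices, with S34F libraries in red above WT libraries in blue and replicates by shape. Red and blue separate only for the 33-base and the 120-base exon of HLA-C, whose WT points reach down to 95.9% and 89.4%.

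Since isolate 2 was read in both marks, the libraries also show how far the members differ between a B1 and a B2 library of 1 isolate. The labels do not say whether these came from the same culture. HLA-C was lower in the B2 library, at 0.647 times its B1 level in S34F and 0.638 times in WT cells. TAPBP was higher, at 2.06 times in S34F and 1.98 times in WT cells, and TAP1 was higher at 1.78 times in S34F and 2.40 times in WT cells. HLA-B was lower, at 0.712 times in S34F and 0.813 times in WT cells, and B2M higher at 1.26 times in S34F and 1.44 times in WT cells. Over 6905 genes and loci with reads in every library, 30.7% differed by at least 1.5 times in the same direction in both genotypes. There is 1 such pair of libraries in each genotype, and these ratios were given no test.

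**Figure D5:**
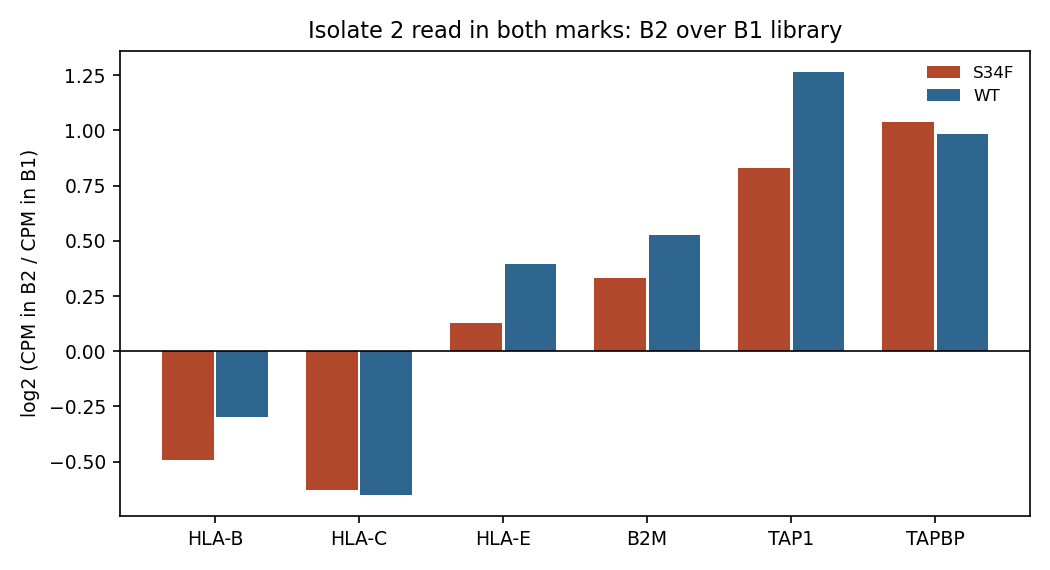
Log2 ratio of the level in the B2 library to that in the B1 library of isolate 2 (y axis) for 6 members, S34F bars left of WT bars. HLA-B and HLA-C lie below 0 and HLA-E, B2M, TAP1 and TAPBP above 0 in both genotypes.

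Around the members, 51 other genes of the pathway were listed, from proteasome subunits and chaperones to interferon signalling. Of these, 44 had reads and 30 were tested. None was called in either direction by edgeR, DESeq2 or limma-voom, beside 3.24% of all tested in edgeR. An unadjusted p under 0.05 was found for 3 of the 30, beside 17.0% of all, and the median log2 fold change was 0.05. Ranges of the genotypes did not overlap for 2 of the 30, IRF9 and the stress ligand gene MICA, beside 13.1% of all. The 3 with the smallest p were lower in S34F libraries on average. PSMB9, a subunit of the immunoproteasome that cuts peptides for class I, had 47.6, 14.9 and 15.1 CPM in S34F and 63.7, 77.2 and 38.1 CPM in WT libraries (log2 fold change -1.19, edgeR adjusted p = 0.110). S34F replicate 1 lay within the WT range. IFNGR2, a chain of the interferon gamma receptor, averaged 69.1 ± 25.4 CPM in S34F and 121 ± 33.5 CPM in WT cells (SD, n = 3 each; log2 fold change -0.81, edgeR adjusted p = 0.194). IRF9, part of the complex that carries type I interferon signals to DNA, had 9.86, 14.9 and 23.6 CPM in S34F and 26.8, 28.0 and 36.9 CPM in WT libraries, which did not overlap (log2 fold change -0.93, edgeR adjusted p = 0.199).

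The closest partners of the members were measured unevenly. The immunoproteasome subunit PSMB8 averaged 46.5 ± 11.8 CPM in S34F and 59.7 ± 7.14 CPM in WT cells (SD, n = 3 each; edgeR adjusted p = 0.615). PSMB10, the other such subunit, averaged 53.9 ± 44.4 CPM in S34F and 45.9 ± 9.88 CPM in WT cells (SD, n = 3 each; edgeR adjusted p = 0.858). TAP2 (3, 3 and 1 reads in S34F, 4, 2 and 4 in WT), IRF1 (2, 4 and 4 reads in S34F, 8, 1 and 9 in WT) and the pseudogene HLA-H (1, 0 and 0 reads in S34F, 2, 7 and 8 in WT) were too low for the test. HLA-G and the class I transactivator NLRC5 had no reads in the rows analysed. Of 43 interferon response genes, 28 had reads and 10 were tested. None was called by edgeR, DESeq2 or limma-voom, none had an unadjusted p under 0.05 in edgeR, and the median log2 fold change was 0.06. The smallest p belonged to the antibody receptor TRIM21, with a log2 fold change of 0.78 (edgeR adjusted p = 0.358), then to ISG20 with -0.54 (edgeR adjusted p = 0.483) and PML with 0.38 (edgeR adjusted p = 0.687). Ranges of the genotypes did not overlap for 1 of the 10, TRIM21, which was higher in S34F libraries, beside 13.1% of all tested. Of the 18 genes with reads that were too low for the test, 8 (44.4%) had every S34F library below every WT library and 0 had the reverse, beside 6.66% and 2.95% of all genes and loci too low for it. Examples, chosen after their values were seen, are IFI6, with 2, 1 and 6 reads in S34F and 19, 8 and 18 in WT libraries, and OASL, with 1, 1 and 0 reads in S34F and 8, 10 and 6 in WT libraries. In the other direction OAS3, chosen the same way, averaged 12.5 CPM in S34F and 3.51 CPM in WT cells. SAMD9 averaged 3.78 CPM in S34F and 0.397 CPM in WT cells, and the ranges of both genes overlapped. Libraries were compared per size, and the S34F libraries were the shallower ones. The shares of the list and of all genes were not matched for read count, and a gene without reads in a WT library cannot count as lower. IFITM1 is among the 8, with 0 reads in each S34F library and 1 in each WT library. Whether the list differs from genes of like depth was not tested.

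Likeness of pattern was described by Pearson's r of log2 CPM over the 6 libraries, which share depth and mark with each gene, so no p is given. Among the genes most like HLA-B were SPINT1 and GSS, with r of 0.99 each. For HLA-C they were HEBP1 (r = 1.00), APBA3 and KRT10 (r = 0.99 each), and for B2M PTHLH (r = 1.00), REV1 and PDS5B (r = 0.99 each). For HLA-E they were BTF3L4, SESN2 and STAMBP, with r of 0.99, 0.99 and 0.96, for TAP1 BCAR1, PI4KB and PANX1, with r of 0.97, 0.96 and 0.93, and for TAPBP MKRN2, SMN1 and PDCD11, with r of 1.00, 0.99 and 0.99. Of 7027 other genes and loci, those at r of 0.95 or more numbered 136 for HLA-C, 88 for B2M, 71 for TAPBP, 37 for HLA-B, 6 for HLA-E and 2 for TAP1. Among the pairs of tested members, r ranged from -0.85 for B2M with HLA-C to 0.87 for TAP1 with HLA-E.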

How the data were processed

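Poly(A) RNA was reverse transcribed by the Smart-Seq2 method and read on a nanopore MinION, per the labels' protocols. The deposited table holds the authors' raw count of long reads per isoform. Its isoform models are tied to FLAIR by the name of their file, and its positions are on hg19, a build named in the submitters' processing notes. No source used here states the aligner, versions, filters or use of strand.

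Counts were summed per gene. Symbols for 10859 of 11034 Ensembl IDs came from a GENCODE annotation of another build (v29, GRCh38), which also gave the sequences, while coordinates are those of the deposited models. Genes, isoforms and isoform usage went through the quasi-likelihood and diffSpliceDGE tests of edgeR 4.0.16 under R 4.3.3 (TMM scaling, filterByExpr with at least 10 reads and 15 in total, a term for the B1/B2 mark), with a threshold of 0.05 on the Benjamini-Hochberg adjusted p over everything tested. DESeq2 1.42.0 and limma 3.58.1 were alternatives. The gene-level test was also run on simulated counts. These had independent libraries, 1 dispersion for all genes and no effect of mark or isolate. They therefore do not check the test under the structure of these libraries. The splice and end choices were built from exon chains after the data were seen, with 3′ ends merged within 100 bases. Tables and plots used Python 3.11.15, pandas 2.3.3, numpy 2.4.6, scipy 1.17.1 and matplotlib 3.10.9.

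Libraries held 451540 to 1720292 reads, fewer in S34F, which limits TAP1 and HLA-F most. Deviations of same-numbered libraries from their genotype means correlated with r = 0.49, 0.16 and 0.85 for numbers 1, 2 and 3. However, S34F replicate 1 correlated more with WT replicate 2 (0.54) and S34F replicate 2 more with WT replicate 1 (0.33). The main tests did not pair libraries by number, and only the setting with a block for replicate numbers did. Comparisons of same-numbered libraries above are descriptive, and the share of all genes with such an order was not computed. The members and lists were chosen with earlier results of these data known. The rule named all members, their 3 isoforms with most reads, 10 partner genes, the 3 smallest p of each list and the 3 genes most like each member. Some of the genes this rule names are not reported here.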

Additional observations from a re-analysis of the deposited data

How the results depend on the processing

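No tested member was called at gene level in any of 22 other settings, no member isoform in any setting tried and no member in isoform usage, and no member's gene-level log2 fold change changed sign. Over these settings HLA-B ranged from -0.90 to -0.63, with adjusted p of 0.0935 to 1.00 over edgeR, DESeq2 and limma-voom, and TAP1 from -1.07 to -0.50. The block for replicate numbers changed no member's call and gave 187 genes, 553 isoforms and 10 genes in usage over the whole series. The second isoform of HLA-C (-0.20 to 0.15 with 1 library left out) reversed, with 0.15 without S34F replicate 3, 0.11 without WT replicate 3 and 0.12 in the B1 libraries alone, and the third of HLA-E (-0.60 to 0.21) with 0.21, 0.17 and 0.18 in the same settings. Of the 17 splice and end choices, 7 differences of means changed sign with 1 library left out. The cause was not tested.

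Counts over the whole series moved more. Of genes, 228 were called with the B1/B2 term, against 2 without it, 0 with isolate 2 summed, 79 in the B1 libraries alone, 74 with thinned counts, 491 with no filter, 72 with at least 10 reads in every library, 147 with library totals alone and 122 on annotated transcript IDs. Leaving out S34F replicates 1, 2 and 3 gave 519, 655 and 94, and leaving out WT replicates 1, 2 and 3 gave 110, 68 and 67. Of isoforms, 595 were called, against 3, 0, 184 and 204 in the first 4 of these settings, 139 with at least 10 reads in every library, 343 in DESeq2 and 203 to 1339 with 1 library left out. In isoform usage 14 genes were called, against 0, 0, 0 and 2 in those 4 settings, 4 with no filter, 3 with at least 10 reads in every library, 30 by the F test and 0 to 9 with 1 library left out. Members with annotated shares apart numbered 0, and 0 to 2 with 1 library left out. Pooled reads give no count of that kind. Depth limits HLA-F and TAP1 most.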

Other observations

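Loci without a gene ID overlapped member exons on the same strand at 2 of the members. Over B2M they held 28, 22 and 65 reads in S34F libraries and 75, 65 and 82 in WT libraries, or 51.4 CPM on average in S34F and 49.5 CPM in WT cells. Most of these reads belonged to 1 single-exon model at the end of the gene, with 312 reads in all. Over TAP1 such loci held 2, 1 and 0 reads in S34F libraries and 2, 4 and 4 in WT libraries.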
